A study of Mus musculus with 23 samples.

Results

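The 10 genes described here mark the notochord, the node, the gut endoderm and the caudal end of the early mouse embryo: T, Shh, Noto, Foxa1, Foxa2, Sox17, Trh, Cdx1, Cdx2 and Cdx4. They were found by gene symbol in the annotation of the array's probes, among 18069 genes with a symbol of their own. Of the 10, 9 had a probe (11 probes in all) and 7 passed the filter on missing and dim values: Foxa1, Foxa2, Sox17, Trh, Cdx1, Cdx2 and Cdx4. No probe carried the symbol T alone, so T was not analysed here. The embryos were of day 8.5, came from matings of mice heterozygous for p53, and were held for 10 minutes in water of 43 °C (heat) or 38 °C (control). Whole embryos of 1 genotype and bath were pooled, 3 to 7 to a pool, and each pool was read on 1 single-colour CodeLink array. The groups were p53 -/- (null) heat (n = 3) and control pools (n = 4), p53 +/- (heterozygous) heat and control pools (n = 4 each), and p53 +/+ (wildtype) heat and control pools (n = 4 each), 23 arrays in all. The p53 alleles were those of the whole animal and the embryo as a whole was sampled, so for each transcript fewer cells of a type and less RNA per cell cannot be told apart.

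The node sits at the front of the primitive streak and gives rise to the notochord, the midline rod that secretes Sonic hedgehog (Shh) to the neural tube above it and the gut below. Noto and T (brachyury) are transcription factors of node and notochord, and the forkhead factor Foxa2 is needed to form both. Foxa1, Foxa2 and Sox17 are transcription factors of the gut endoderm, and Trh, which encodes thyrotropin-releasing hormone, is a known transcript of node and hindgut in early embryos. The caudal-type homeobox factors Cdx1, Cdx2 and Cdx4 are active in the tail end of the embryo, where they act downstream of Wnt and retinoic acid signals, set posterior Hox expression and, in the case of Cdx2, the identity of the hindgut.

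As heat was one of the treatments, the 250 bases before listed starts of the members' genes were searched. Some of these starts, such as that of Foxa1, lie inside the gene. The search was for a short form of the heat shock element, the site bound by heat shock factors. This form was written as GAANNTTC or TTCNNGAA. Each pattern reads the same on both strands. The RefSeq promoter table (GRCm38.p6) held no entry for Shh and Sox17, and Cdx1 was left out of the search. The 7 other members (T, Foxa1, Foxa2, Noto, Trh, Cdx2 and Cdx4) had 9 windows. Of these windows 3 held a match, as did 12.8% of all 32851 promoters in the table. These 3 are shown, 5′ to 3′ on the gene's strand with the match in capitals. The Cdx2 window is chr5:147307250-147307499, minus strand, that of Cdx4 is chrX:103321148-103321397, plus strand, and that of Trh is chr6:92244651-92244900, minus strand.
Cdx2: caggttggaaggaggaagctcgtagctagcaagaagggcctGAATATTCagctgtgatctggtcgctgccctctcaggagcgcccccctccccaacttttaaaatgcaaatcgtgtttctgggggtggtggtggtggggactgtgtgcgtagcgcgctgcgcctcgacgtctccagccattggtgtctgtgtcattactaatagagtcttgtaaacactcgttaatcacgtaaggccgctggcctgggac
Cdx4: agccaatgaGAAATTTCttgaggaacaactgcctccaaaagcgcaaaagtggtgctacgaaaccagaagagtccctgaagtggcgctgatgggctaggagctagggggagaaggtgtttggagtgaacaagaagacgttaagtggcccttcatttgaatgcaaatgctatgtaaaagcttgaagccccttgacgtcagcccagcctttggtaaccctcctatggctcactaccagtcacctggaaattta
Trh: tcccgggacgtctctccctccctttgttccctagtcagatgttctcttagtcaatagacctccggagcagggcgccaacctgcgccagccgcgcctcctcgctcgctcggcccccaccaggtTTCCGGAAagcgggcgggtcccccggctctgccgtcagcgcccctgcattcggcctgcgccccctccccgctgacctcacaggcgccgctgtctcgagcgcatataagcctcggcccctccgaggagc
The match lies 209 bases before the start in Cdx2, 241 in Cdx4 and 128 in Trh. None of these 3 genes passed the test for a change with heat (values below). A p53 half-site was found in none of the 9 windows, against 7.13% of all promoters. A match is a run of letters and not a measured site, and the absence of one says only that these letters are not in the window.

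The values are the authors' intensities in relative units, brought to a common distribution over the arrays, and log2 differences are given ± SE. Heat and control columns differ in how they were filtered: 129 to 203 probes were without a value on heat arrays, against 7576 to 11666 on control arrays, and the lowest value in a control column was between 0.188 and 0.333. Bath and array processing therefore cannot be told apart. Some pools stood apart from their group. Hspa1a, an inducible heat shock chaperone, was at 78.7 to 123 in wildtype heat A, C and D and 120 in null heat B. It was at 0.877 to 2.1 in the 7 other heat pools and at 0.496 to 1.04 in the control pools. Hspb1, another heat shock gene, was at 63.5 to 95.9 in all heat pools, against 15.2 to 20.2 in the control pools with a value. Cdkn1a, a p53 target, was at 1.29 and 1.45 in heterozygous control C and D and 1.92 in heterozygous heat D, near the null control pools (1.07 to 1.47), and at 4.96 to 5.49 in the other heterozygous pools. The null heat pools A and B had Cdkn1a at 3.93 and 4.65. Ccng1, another p53 target, was lower in each null pool than in any wildtype pool. In null heat A, however, it was at 3.02, against 1.24 to 1.58 in the other null pools. The heterozygous control pools had Ccng1 at 2.19 to 2.95. No tested probe carried the symbol of the p53 gene.

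Of the 7 tested members, Sox17 fell with heat and Cdx1 was higher in null than in wildtype control pools. These were 2 of 70 tests of the 7 genes over 10 comparisons by limma, with p-values adjusted over all 21979 probes at a threshold of 0.05. With heat, averaged over the 3 genotypes, 0 members rose and 1 fell, where 15% of the 12651 tested genes passed (733 higher and 1163 lower). With heat in null pools 0 members passed (6.34% of all genes), with heat in heterozygous pools 0 (3.08%), and with heat in wildtype pools 0 (3.6%). At an unadjusted p under 0.05 the members numbered 3 of 7 in null (26.9% of all genes), 1 in heterozygous (18%) and 1 in wildtype pools (18.9%). Null against wildtype pools gave 1 member in the control bath (8.5% of all genes) and 0 in the heat bath (0.49%). At an unadjusted p under 0.05 these were 1 member in the control bath (27.1% of all genes) and 0 in the heat bath (19.3%). Heterozygous against wildtype pools gave 0 members in the control bath (0% of genes) and 0 in the heat bath (0.142%). At an unadjusted p under 0.05 these were 0 members in the control bath (6.22% of all genes) and 1 in the heat bath (9.6%). The difference between the heat responses passed for 0 members in null against wildtype pools (0.68% of all genes) and for 0 in heterozygous against wildtype pools (0%). At an unadjusted p under 0.05 this was 1 member for null (22.3% of all genes) and 1 for heterozygous pools (5.17%). The median change of the 7 members with heat averaged over the genotypes was -0.02, beside -0.01 for all genes, and for null against wildtype control pools it was 0.15, beside 0.04.

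**Figure D1:**
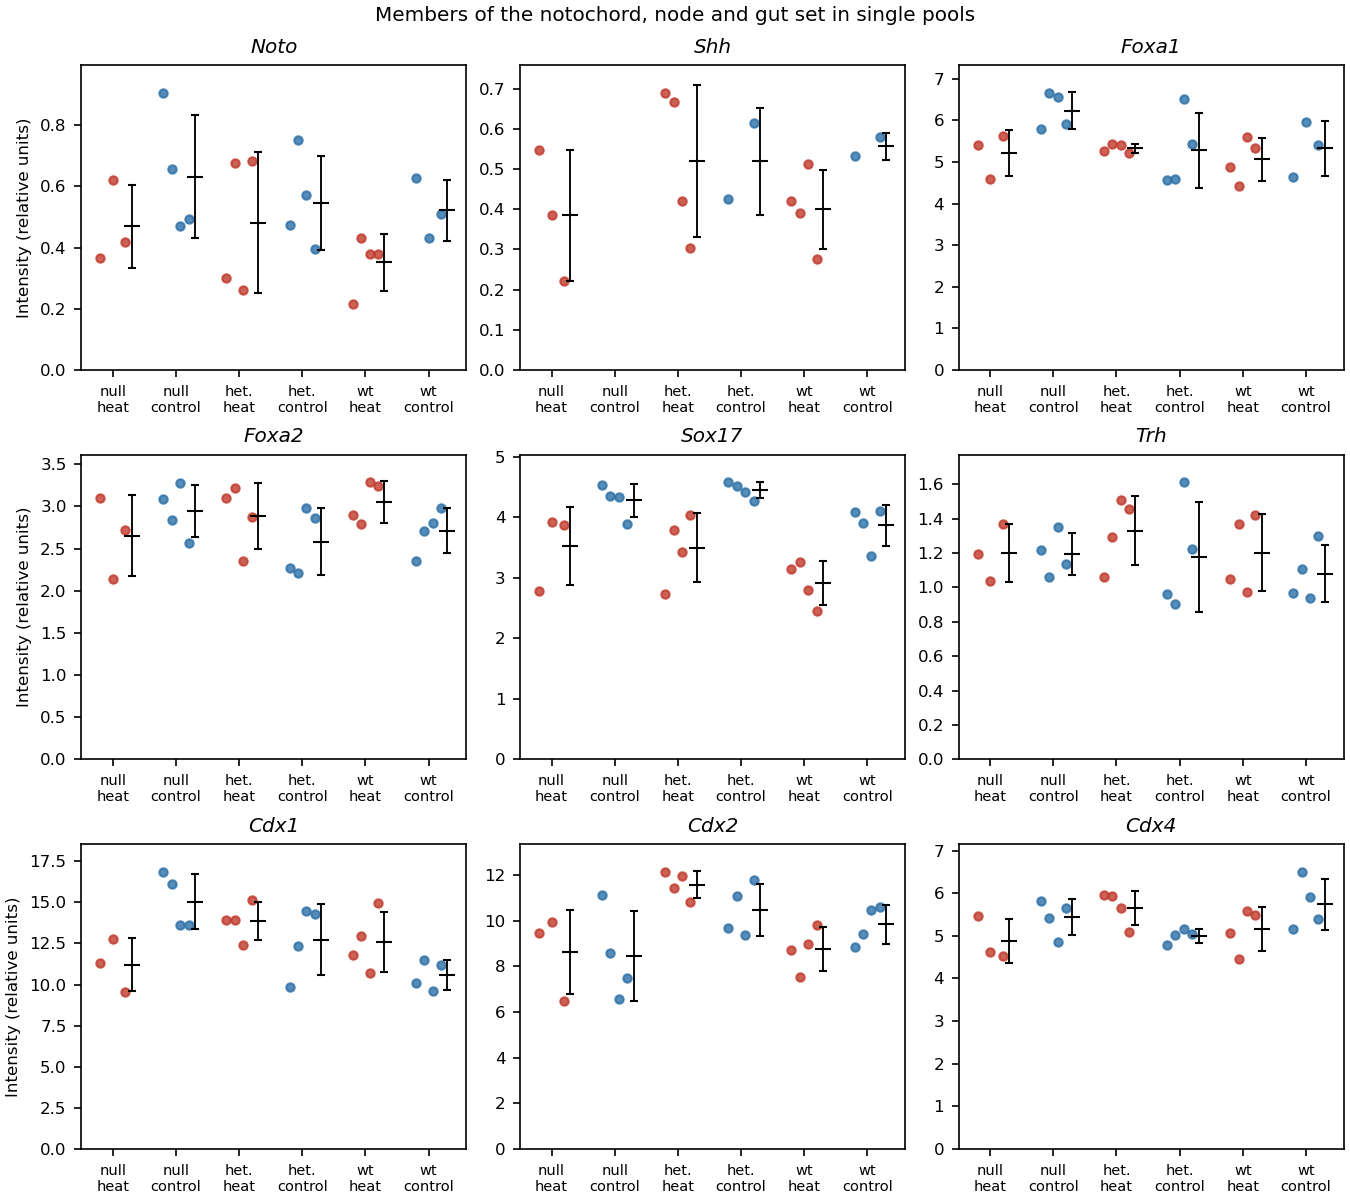
Intensity (relative units, linear axes from 0) of 9 members in every pool, red for heat and blue for control, with the mean and SD of each group beside the points; a pool without a value has no point. In the Sox17 panel 10 of the 11 heat pools lie under all control pools of their own genotype, while Shh has no point in null control pools.

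Sox17, an HMG-box factor needed to form definitive endoderm and also known from arterial and haemogenic endothelium, was lower after heat in all genotypes. Its intensities were 2.79, 3.92 and 3.88 in null heat pools, against 4.54, 4.36, 4.33 and 3.89 in null control pools. The heterozygous heat pools had 2.74, 3.79, 3.43 and 4.04, against 4.58, 4.52, 4.42 and 4.28 in heterozygous control pools. The wildtype heat pools had 3.15, 3.26, 2.79 and 2.46, against 4.09, 3.90, 3.37 and 4.11 in wildtype control pools. In heterozygous and in wildtype embryos the baths did not overlap, and in null embryos 1 heat pool lay above the lowest control pool. Of the 11 heat pools, 6 lay below all 12 control pools.

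Averaged over the genotypes Sox17 fell with heat by 0.36 ± 0.07 on the log2 scale (0.782-fold, limma adjusted p = 0.00248). Within single genotypes the difference was -0.29 ± 0.13 in null (adjusted p = 0.174), -0.36 ± 0.12 in heterozygous (adjusted p = 0.136) and -0.41 ± 0.12 in wildtype pools (adjusted p = 0.0735), none past the threshold. The null value rests on null heat A, without which it was -0.13 (adjusted p = 0.56). The heat response of null pools differed from that of wildtype pools by 0.12 ± 0.18 (adjusted p = 0.709), with a 95% interval from -0.26 to 0.50. Without the 5 pools that stood apart in Hspa1a or Cdkn1a (wildtype heat B, null heat B, heterozygous control C and D, heterozygous heat D) the averaged difference was -0.44 (adjusted p = 0.00271). Without null heat A as well, which also stood apart in Cdkn1a, it was -0.36 (adjusted p = 0.0117), with the 1 remaining null heat pool assumed to vary like the other groups. Between genotypes Sox17 did not pass the test in either bath: null minus wildtype was 0.27 ± 0.13 in the heat bath (adjusted p = 0.262) and 0.15 ± 0.12 in the control bath (adjusted p = 0.467), and heterozygous minus wildtype was 0.26 ± 0.12 (adjusted p = 0.427) and 0.21 ± 0.12 (adjusted p = 0.825) in the same baths. A second Sox17 probe had values of 0.167 to 0.383 in the 11 heat pools and a value in only 2 of 12 control pools (0.286 and 0.228), so it was not tested.

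Genes of other tissues that express Sox17 were set beside it. Endothelial genes were a list added after the data were seen. Of 10 tested, 0 rose and 1 fell with heat averaged over the genotypes, beside 15% of all genes in both directions. That one was Emcn, the endothelial sialomucin endomucin (-0.47 ± 0.10, adjusted p = 0.00411). By genotype, 1 rose and 0 fell in null pools (Cldn5, a tight junction protein, 1.04 ± 0.30, adjusted p = 0.0441), 0 rose and 1 fell in heterozygous pools (Emcn, -0.71 ± 0.18, adjusted p = 0.0349), and 0 rose and 2 fell in wildtype pools. These 2 were Emcn (-0.75 ± 0.18, adjusted p = 0.0198) and Pecam1, the adhesion molecule CD31 (-0.84 ± 0.23, adjusted p = 0.0469). Of all genes 6.34% passed with heat in null, 3.08% in heterozygous and 3.6% in wildtype pools. The summed level of 7 endothelial genes with a value on all arrays was 56.9 to 58.3 in null heat pools and 50.6 to 61.2 in null control pools. It was 53.7 to 59.7 in heterozygous heat pools and 60.2 to 66.8 in heterozygous control pools, and 50.3 to 68.6 in wildtype heat pools and 59.4 to 65.9 in wildtype control pools. The sum overlapped between the baths in null and wildtype embryos and not in heterozygous embryos. Of 18 tested genes of the yolk sac's visceral endoderm 1 rose and 0 fell with heat averaged over the genotypes, beside the same 15%. By genotype, 1 rose and 0 fell in null pools, 0 rose and 0 fell in heterozygous pools, and 0 rose and 1 fell in wildtype pools. Their median change was 0.47 in null, 0.56 in heterozygous and -0.64 in wildtype pools, so the average joins opposite directions. The medians of all genes were -0.010, -0.004 and -0.025 in the same order. The part of these tissues in the Sox17 result was not tested.

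Of 20 tested gut endoderm genes, 2 rose and 1 fell with heat averaged over the genotypes, beside 15% of all genes in both directions. Their median change was 0.10, beside -0.01 for all genes. Krt19, an epithelial keratin, rose by 0.64 ± 0.06 (adjusted p = 5.93e-07), and Pyy, the gut hormone peptide YY, rose by 0.28 ± 0.08 (adjusted p = 0.0245). Sox18, a relative of Sox17 best known from blood and lymph vessels, fell by 0.39 ± 0.09 (adjusted p = 0.00477). It was counted in this list and not among the endothelial genes above. The gut list also shares Ttr, Afp and Hnf4a with the yolk sac list, so the counts of these lists are not separate. In null against wildtype control pools, where 8.5% of all genes passed, 0 of the 20 were higher and 2 lower. They were Isl1, a LIM-homeobox factor of foregut mesoderm and endoderm (-0.53 ± 0.14, adjusted p = 0.0295), and Gata6, a zinc finger factor of endoderm and heart (-0.68 ± 0.20, adjusted p = 0.0381).

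Foxa1 and Foxa2, the forkhead factors that open chromatin for endodermal genes, passed the test in no comparison. Foxa1 had 5.42, 4.58 and 5.63 in null heat pools, against 5.79, 6.66, 6.57 and 5.91 in null control pools, without overlap. It had 5.25, 5.43, 5.41 and 5.21 in heterozygous heat pools, against 4.57, 4.60, 6.50 and 5.43 in heterozygous control pools. It had 4.88, 4.42, 5.60 and 5.34 in wildtype heat pools, against 4.63, 5.95 and 5.41 in the 3 wildtype control pools with a value. The heat difference of Foxa1 was -0.26 ± 0.12 in null pools (adjusted p = 0.183) and -0.10 ± 0.07 averaged over the genotypes (adjusted p = 0.385), the second with a 95% interval from -0.24 to 0.04. With the highest value of each array as a covariate that average was -0.23 (adjusted p = 0.00818), with the first component score -0.06 (adjusted p = 0.597), and without the 5 pools apart in Hspa1a or Cdkn1a 0.01 (adjusted p = 0.902), the opposite sign. Heat and control arrays differ in that value (235 to 488 in heat columns, against 181 to 329 in control columns), so it moves with the bath. Between genotypes, Foxa1 in null minus wildtype pools was 0.04 ± 0.12 in the heat bath (adjusted p = 0.871) and 0.23 ± 0.12 in the control bath (adjusted p = 0.239). Heterozygous minus wildtype was 0.08 ± 0.11 in the heat bath and -0.02 ± 0.12 in the control bath.

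Foxa2 had 3.10, 2.14 and 2.72 in null heat pools, against 3.09, 2.84, 3.28 and 2.57 in null control pools. It had 3.10, 3.22, 2.35 and 2.88 in heterozygous heat pools, against 2.27, 2.21, 2.98 and 2.87 in heterozygous control pools, and 2.90, 2.79, 3.28 and 3.24 in wildtype heat pools, against 2.35, 2.71, 2.80 and 2.98 in wildtype control pools. The baths overlapped in each genotype. The averaged heat difference was 0.06 ± 0.08 (adjusted p = 0.691), with a 95% interval from -0.10 to 0.22. Null minus wildtype was -0.22 ± 0.14 in the heat bath (adjusted p = 0.387) and 0.12 ± 0.13 in the control bath (adjusted p = 0.595). Heterozygous minus wildtype was -0.09 ± 0.13 in the heat bath and -0.08 ± 0.13 in the control bath.

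Trh passed the test in no comparison. Its 11 heat pools ran from 0.973 to 1.51 with a median of 1.29, against 0.906 to 1.61 with a median of 1.12 in the 12 control pools, and the baths overlapped almost completely. The averaged heat difference was 0.12 ± 0.10 (adjusted p = 0.509), with a 95% interval from -0.09 to 0.33. Null minus wildtype was 0.01 ± 0.19 in the heat bath (adjusted p = 0.989) and 0.15 ± 0.17 in the control bath (adjusted p = 0.606). Heterozygous minus wildtype was 0.15 ± 0.17 in the heat bath (adjusted p = 0.807) and 0.10 ± 0.17 in the control bath (adjusted p = 0.943).

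The notochord and node markers Shh and Noto were near the low end of the arrays and were not tested. Shh had a value in all 11 heat pools, from 0.222 to 0.689 with a median of 0.42, against 4 of 12 control pools, from 0.424 to 0.614. The 4 were heterozygous control A and B (0.424 and 0.614) and wildtype control C and D (0.533 and 0.580), and no null control pool had one. The level behind an empty control cell is not known, so no difference can be read from this. Noto had 0.367, 0.622 and 0.419 in null heat pools, against 0.906, 0.658, 0.469 and 0.495 in null control pools. It had 0.302, 0.677, 0.263 and 0.683 in heterozygous heat pools, against 0.472, 0.751, 0.572 and 0.394 in heterozygous control pools, and 0.216, 0.430, 0.381 and 0.379 in wildtype heat pools, against 0.629, 0.431 and 0.509 in the 3 wildtype control pools with a value. The baths overlapped in null and heterozygous embryos, and in wildtype embryos the highest heat pool lay just under the lowest control pool. That control value, in wildtype control C, was deposited as 0.501, under the 0.512 to which dim values of that array were raised. Heterozygous control D (deposited as 0.490, raised to 0.499) was also such a value. Wildtype control B was empty, and control columns held no value under 0.188 to 0.333. The order of the wildtype baths therefore cannot be read as a difference.

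Other genes of the Hedgehog pathway could be tested where Shh itself could not. Of 15 tested, 0 rose and 4 fell with heat averaged over the genotypes, beside 15% of all genes in both directions, with a median change of -0.05. Gas1, a membrane co-receptor for Hedgehog ligands, fell by 0.34 ± 0.07 (adjusted p = 0.00135). Smo, the seven-pass signal transducer, fell by 0.46 ± 0.13 (adjusted p = 0.0194). Scube2, which helps release the ligand, fell by 0.47 ± 0.14 (adjusted p = 0.0263), and Kif7, a ciliary kinesin that controls Gli factors, fell by 0.27 ± 0.08 (adjusted p = 0.028). None of the 15 passed in null against wildtype control pools, where 8.5% of all genes passed. Their median difference there was 0.15, beside 0.04 for all genes. Of 12 tested node, notochord and left-right genes 0 passed with heat averaged over the genotypes, and their median change was 0.08. In null against wildtype control pools, where 8.5% of all genes passed, 2 of the 12 were lower and 0 higher. They were Krt8, an epithelial keratin found in notochord as well as in yolk sac and trophoblast (-2.37 ± 0.58, adjusted p = 0.0212), and Mns1, a protein of motile cilia (-1.36 ± 0.35, adjusted p = 0.0252).

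Of the 3 caudal factors, Cdx1 was higher in null than in wildtype pools of the control bath. Its intensities were 16.9, 16.1, 13.6 and 13.6 in null control pools and 9.86, 12.3, 14.5 and 14.3 in heterozygous control pools, against 10.1, 11.5, 9.60 and 11.2 in wildtype control pools. All 4 null pools lay above all 4 wildtype pools, with means of 15.0 ± 1.68 in null and 10.6 ± 0.901 in wildtype pools (SD, n = 4 each). The difference was 0.50 ± 0.13 on the log2 scale (1.42-fold, limma adjusted p = 0.0223), with a 95% interval from 0.24 to 0.77. Heterozygous minus wildtype was 0.25 ± 0.13 (adjusted p = 0.824). A second Cdx1 probe had 4.42, 3.69, 3.22 and 2.10 in null control pools, against 2.17, 2.42, 1.61 and 2.57 in wildtype control pools, a difference of 0.59 ± 0.22 that did not pass (adjusted p = 0.101), with 1 null pool inside the wildtype range.

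The Cdx1 call did not hold without wildtype control A (adjusted p = 0.056), C (0.0611) or D (0.0511) or without null control B (0.0681), while the difference stayed between 0.45 and 0.55 whichever pool was left out. A score of the main direction of within-group variation was negative in all 4 null control pools and positive in all 4 wildtype control pools, and with it as a covariate the difference was 0.43 (adjusted p = 0.332). Genes of other tissues differed between the same pools. Of 10 tested endothelial genes 3 were lower and 0 higher in null control pools, as were 2 of 6 tested genes of primitive red cells, with 0 higher. Of all genes 8.5% passed in this comparison. The summed level of 14 yolk sac genes was 179 to 304 in null and 261 to 385 in wildtype control pools. Their part in the Cdx1 difference was not tested.

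After heat Cdx1 had 11.3, 12.7 and 9.57 in null pools and 13.9, 13.9, 12.4 and 15.2 in heterozygous pools, against 11.8, 12.9, 10.7 and 15.0 in wildtype pools. Null and wildtype pools overlapped there (-0.17 ± 0.14, adjusted p = 0.489), and the second Cdx1 probe had the opposite sign (0.22 ± 0.24, adjusted p = 0.615). Heat against control was -0.43 ± 0.14 in null pools (adjusted p = 0.0668), with all 3 heat pools below all 4 control pools, 0.14 ± 0.13 in heterozygous pools (adjusted p = 0.656) and 0.25 ± 0.13 in wildtype pools (adjusted p = 0.322). The difference between the null and wildtype responses was -0.67 ± 0.19 (adjusted p = 0.0787), which did not pass, and its 95% interval ran from -1.06 to -0.28. In values as deposited that difference was -0.41 (adjusted p = 0.238), and by the second probe -0.36 ± 0.33 (adjusted p = 0.5). Without the 5 pools apart and null heat A it was -0.87 (adjusted p = 0.0482), with 1 null heat pool left.

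Cdx2, which is also known from the trophoblast, had 9.46, 9.93 and 6.50 in null heat pools, against 11.1, 8.60, 6.56 and 7.50 in null control pools. It had 12.1, 11.4, 11.9 and 10.8 in heterozygous heat pools, against 9.68, 11.1, 9.38 and 11.8 in heterozygous control pools, and 8.72, 7.52, 8.97 and 9.83 in wildtype heat pools, against 8.86, 9.41, 10.5 and 10.6 in wildtype control pools. The averaged heat difference was 0.00 ± 0.08 (adjusted p = 0.983), with a 95% interval from -0.17 to 0.18. In the heat bath all 4 heterozygous pools lay above all 4 wildtype pools, a difference of 0.41 ± 0.14 that did not pass (adjusted p = 0.243). Null minus wildtype was -0.24 ± 0.14 in the control bath (adjusted p = 0.284). That value was -0.39 without null control A, -0.13 without null control C and -0.08 with the first component score as a covariate.

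Cdx4 had 5.47, 4.62 and 4.53 in null heat pools, against 5.83, 5.42, 4.85 and 5.66 in null control pools. It had 5.95, 5.93, 5.66 and 5.09 in heterozygous heat pools, against 4.78, 5.01, 5.17 and 5.05 in heterozygous control pools, and 5.07, 4.46, 5.59 and 5.50 in wildtype heat pools, against 5.16, 6.50, 5.91 and 5.39 in wildtype control pools. Heat against control was -0.16 ± 0.10 in null (adjusted p = 0.322), 0.17 ± 0.10 in heterozygous (adjusted p = 0.39) and -0.15 ± 0.10 in wildtype pools (adjusted p = 0.42). In values as deposited the wildtype difference was -0.31 (adjusted p = 0.0233), where the median of all genes was -0.17.

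**Figure D2:**
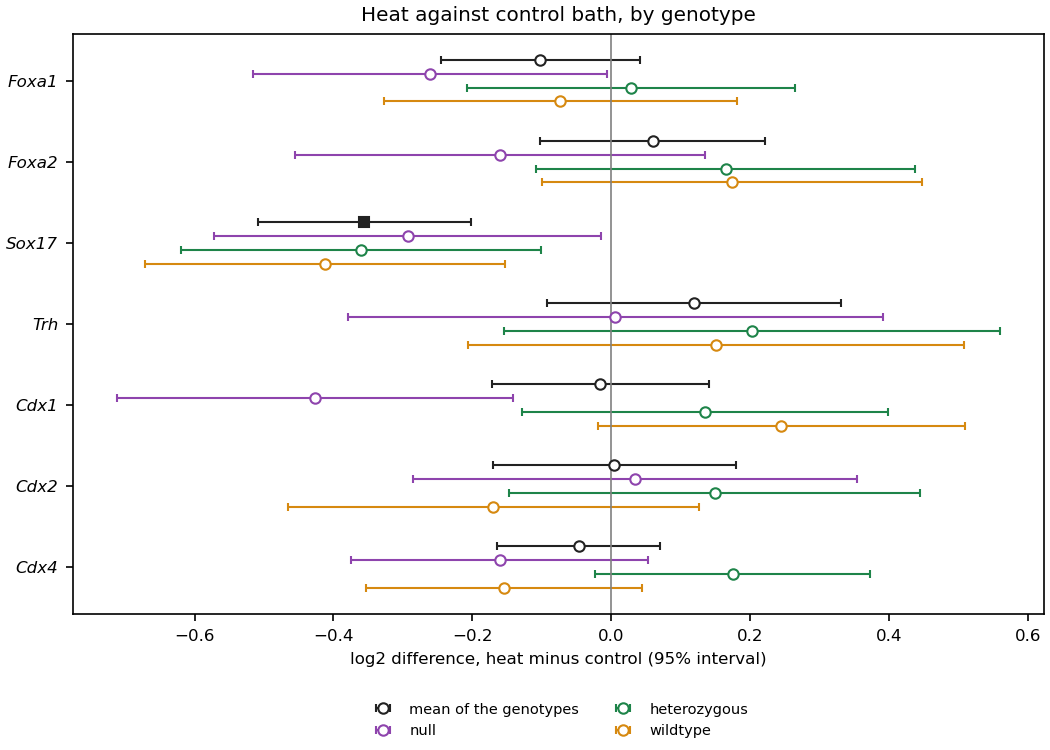
Log2 difference of heat minus control pools for the 7 tested members, averaged over the genotypes and in null, heterozygous and wildtype pools; bars are 95% intervals, and a filled square marks an adjusted p under 0.05. The averaged Sox17 difference of -0.36 is the one filled square, and the Cdx1 difference is -0.43 in null and 0.25 in wildtype pools.

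Among 20 tested genes of the caudal end and of Wnt signalling, 2 rose and 5 fell with heat averaged over the genotypes. Their median change was 0.05, and 15% of all genes passed in both directions. Cyp26a1, which degrades retinoic acid in the tail bud, rose by 0.37 ± 0.07 (adjusted p = 0.00109), and Rspo3, a secreted enhancer of Wnt signals, rose by 0.38 ± 0.09 (adjusted p = 0.00696). Wnt3a, the ligand of the tail bud, fell by 0.25 ± 0.06 (adjusted p = 0.00721), and Tbx6, a T-box factor of presomitic mesoderm, fell by 0.29 ± 0.07 (adjusted p = 0.0075). In null against wildtype control pools, where 8.5% of all genes passed, 0 were higher and 3 lower. These were the ligand gene Wnt5a (-1.17 ± 0.29, adjusted p = 0.0212), Rspo3 (-0.56 ± 0.15, adjusted p = 0.0297) and the homeobox gene Hoxb9 (-1.15 ± 0.33, adjusted p = 0.0367). Cdx1, the one tested member higher there, was not in this list.

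**Figure D3:**
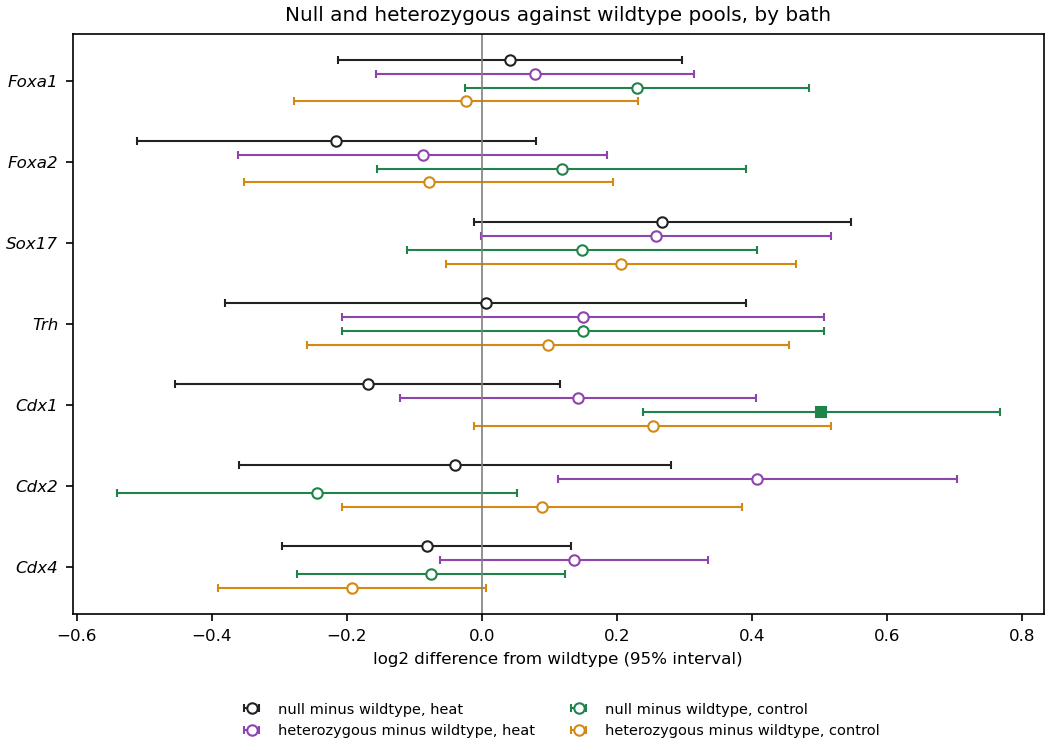
Log2 difference of null and of heterozygous from wildtype pools for the 7 tested members in the heat and in the control bath; bars are 95% intervals, and a filled square marks an adjusted p under 0.05. Cdx1 in null against wildtype control pools (0.50) is the one filled square, and the Cdx2 interval of heterozygous against wildtype heat pools (0.41) lies above 0 without passing after adjustment.

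Whether members varied together among pools of 1 group was asked with each pool's deviation from its group mean, over the 21 pairs of the 7 genes. Foxa1 and Foxa2 had the closest deviations (Pearson r = 0.70, n = 22, permutation p = 0.00171, adjusted over the 21 pairs 0.0359). Spearman's rho was 0.63 (permutation p = 0.00444, adjusted p = 0.0591), and without the 2 pools farthest from the median r was 0.64 (adjusted permutation p = 0.102). Within baths r was 0.62 over 11 heat pools and 0.78 over 11 control pools. With arrays centred on their medians r was 0.67 (adjusted permutation p = 0.0798), and in values as deposited 0.51 (0.209), so the call of this pair rests on the normalization and on those 2 pools. Sox17 and Cdx4 deviated in opposite directions (r = -0.63, n = 23, permutation p = 0.00943, adjusted p = 0.099; rho = -0.66, permutation p = 0.00563, adjusted p = 0.0591), which did not pass. Without the 2 pools farthest from the median r was -0.57, and in values as deposited -0.09. Cdx1 with Cdx2 (r = 0.48) and Cdx2 with Cdx4 (r = 0.52) did not pass either (adjusted permutation p = 0.254 and 0.22). For comparison, the median r with all tested probes that had a value on every array was 0.11 for Foxa1 and 0.08 for Foxa2. It was -0.08 for Sox17, 0.06 for Cdx4, 0.02 for Cdx1 and -0.04 for Cdx2.

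**Figure D4:**
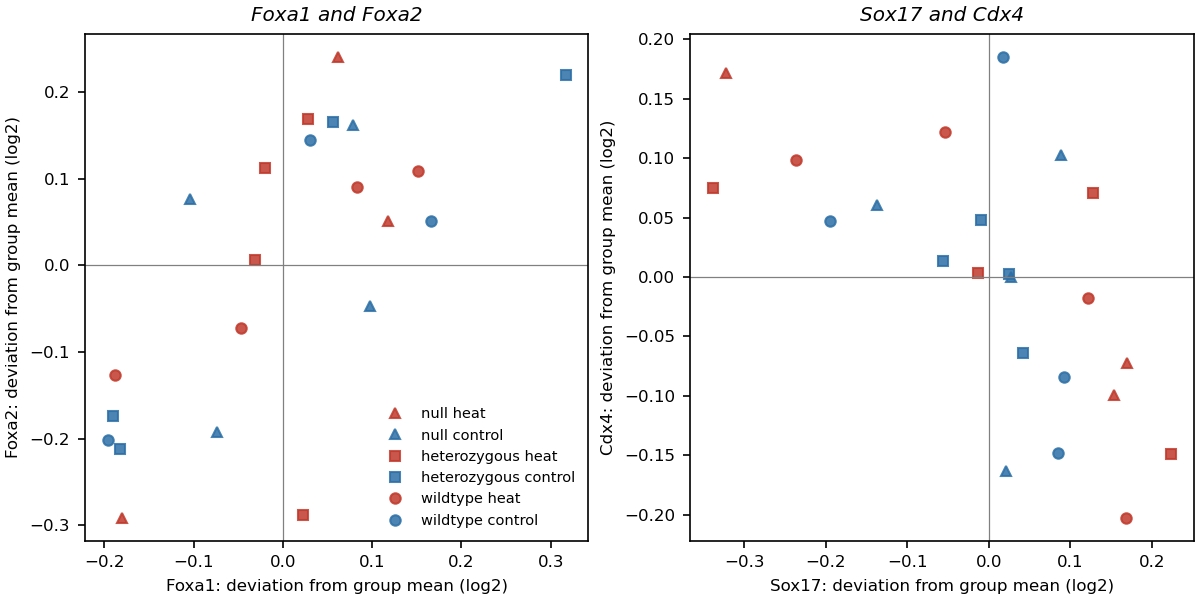
Deviation of single pools from their group mean (log2), Foxa2 against Foxa1 on the left and Cdx4 against Sox17 on the right; colour marks the bath and shape the genotype. Foxa1 and Foxa2 deviate mostly to the same side (r = 0.70, 22 pools), and Sox17 and Cdx4 mostly to opposite sides (r = -0.63, 23 pools).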

How the data were processed

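The authors deposited 1 table of linear intensities, with 23 arrays as columns and 36227 probes as rows. How the arrays were scanned, corrected and normalized is not given in the sources used here. Empty cells and the code -9999 were set to missing. On each array, positive values below their 5th percentile and values at or under 0 were raised to that percentile, log2 was taken, and a quantile map fitted on the 18702 complete probes was applied to each array. Tests were run for probes with 3 or more values per group that exceeded their array's 40th percentile on 3 or more arrays (21979 probes, 12651 genes). Of several probes of a gene the one with the highest mean log2 value stands for it, and 21615 probes have 1 symbol, 681 several and 13931 none listed here. Differences come from limma 3.58.1 in R 4.3.3 (lmFit, then eBayes with trend), a model of 6 group means, with two-sided p-values after Benjamini-Hochberg adjustment over all tested probes and 0.05 as threshold.

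The members and the lists were chosen with earlier results of these data known. The rule for named genes took all 10 members, with tested differences for the 7 that passed the filter. Of each related list (Hedgehog, node and left-right, gut endoderm, caudal end, yolk sac, trophoblast, red cells, heart muscle, neural, endothelium) at most 4 genes past the threshold are named per comparison. Not every list is given in every comparison, and some genes past the threshold are counted without being named. The likeness of a member to other genes is Pearson's r over the 23 arrays. Correlations among members used 100000 permutations. No source says that pools came from separate litters, so the p-values reflect only how these pools vary, and the number of arrays limits the precision. The fit was tested on simulated data. Alternatives were other normalizations, floors and filters, array weights, covariates, a replicate block and leaving out single arrays. A further null heat pool was not analysed here.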

Additional observations from a re-analysis of the deposited data

How the results depend on the processing

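The fall of Sox17 with heat averaged over the genotypes stayed past the threshold under all 37 alternatives, from -0.44 to -0.30 on the log2 scale. No member reversed a call. The count of members past the threshold with heat in wildtype pools was 0 and became 2 in values as deposited (Sox17 and Cdx4), 1 with array weights, 1 with the first component score as covariate, 1 without the 5 pools apart in Hspa1a or Cdkn1a, and 0 to 1 when single pools were left out (1, Sox17, without heterozygous heat A at adjusted p = 0.0468 or without null heat A at 0.046). With heat in null pools it was 0 and became 2 with the highest value of the array as covariate (Foxa1 and Cdx1), 1 (Cdx1) without the 4 arrays of low highest value, and 0 to 1 without single pools (1, Cdx1, without heterozygous control A at adjusted p = 0.0453). Without the 6 pools apart, null heat A included, the count was 1 with heat in wildtype pools (Sox17), 1 with heat in heterozygous pools (Sox17) and 1 for the difference between the null and wildtype responses (Cdx1), each 0 in the fit of all pools. Averaged over the genotypes it was 1, and 2 with the highest value as covariate. For null against wildtype control pools it was 1, and 2 with array weights (Cdx2 at -0.33, adjusted p = 0.0382), 0 with the first component score, and 0 to 1 without single pools. The pairs of members whose deviations passed numbered 1, and 0 with arrays centred on medians, 0 in values as deposited and 0 without the 2 farthest arrays. The cause of these changes was not tested. Leaving out the 4 low arrays, leaving out the 5 or 6 pools apart and setting low heat values to missing were chosen after the data were seen.

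With the replicate letter as a block, the Sox17 difference was -0.36 (adjusted p = 0.00337) and that of Cdx1 0.50 (adjusted p = 0.00933), and no member's call changed. Of 55 same-letter pairs of deviations 27 correlated above 0.1, with r from -0.357 to 0.68. Pairs of unlike letters were not set beside them, so whether the letters pair the pools was not tested. The share of higher among all calls with heat averaged over the genotypes was 38.7% with the quantile map, 24.6% with arrays centred on medians and 18% in values as deposited. For null against wildtype heat pools it was 50% with the quantile map and 96.7% in values as deposited, where the median of all genes was 0.22. In a fit of the heat pools alone no member passed between genotypes (lowest adjusted p = 0.383, Cdx2 in heterozygous against wildtype pools), with 18 and 1 of 22767 probes called for null and heterozygous against wildtype. Dim members (Shh, Noto, the second Sox17 probe) could not be tested at this signal.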

Other observations

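Over the 23 arrays the genes most like each member were searched among 10767 named genes with a value on all arrays, a description in which all arrays share groups and processing. Sox17 was most like Adamts15, which encodes a secreted metalloprotease (r = 0.93), the ubiquitin ligase gene Mib2 (0.90) and the adaptor gene Gga2 (0.90). Cdx1 was most like Wnt8a, a Wnt ligand of the caudal embryo (r = 0.82), the polarity gene Llgl2 (0.80) and Prodh2 (0.77). Cdx2 was most like Rnf25 (r = 0.84), Cdx4 like Crtc2 (0.78), Foxa2 like Lins1 (0.83) and Trh like Lrrc66 (0.78). The median r of a member with all genes searched lay between -0.04 and 0.07.

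With heat averaged over the genotypes, 0 of 8 heart muscle genes passed and 1 of 9 neural genes fell, beside 15% of all genes. The neural gene was the proneural factor gene Neurog2 (-0.48 ± 0.11, adjusted p = 0.00676). Of 4 tested trophoblast and decidua genes 1 rose, and of 6 primitive red cell genes 1 rose. In null against wildtype control pools, where 8.5% of all genes passed, the eye and neural tube factor gene Pax6 was higher (0.49 ± 0.14, adjusted p = 0.0313). The forebrain factor gene Otx2 was lower (-0.95 ± 0.27, adjusted p = 0.0342). The endothelial genes lower there were Cldn5 (-1.31 ± 0.28, adjusted p = 0.0127), Cd34 (-1.17 ± 0.27, adjusted p = 0.017) and Pecam1 (-0.88 ± 0.23, adjusted p = 0.024).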
